A study of Mus musculus with 12 samples.

Results

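The Egr genes encode early growth response transcription factors, and the Nab genes encode the corepressors that bind them. The members were the 6 genes of the count table with the symbols Egr1, Egr2, Egr3, Egr4, Nab1 and Nab2, of 48795 genes in all. RNA from the piriform cortex, the main cortical area for smell, was sequenced from 12 mice on a C57BL/6 background at 12 months of age. The Q140 group held 6 mice heterozygous for a knock-in allele of Htt, the huntingtin gene mutated in Huntington's disease. The other 6 mice were wild type, and each group had 3 males and 3 females. The knock-in allele is carried by every cell of the animal, and each library is 1 animal with no pooling named in the labels. The animals' names in the labels carry prefixes whose meaning the labels do not give. RFckQ was the prefix of 4 wild types and 1 Q140 mouse, and RFQ that of 1 wild type and 3 Q140 mice, all 4 of them males. A wild type bore the prefix FMQ, and 2 Q140 females bore no prefix.

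Egr1, Egr2 and Egr3 are zinc finger proteins that bind GC-rich sites and are induced within minutes to hours in neurons by synaptic activity, growth factors and calcium. Egr4 shares the zinc fingers. The Ras to ERK cascade, the serum response factor SRF with its cofactors, and CREB switch these genes on. Nab1 and Nab2 bind Egr1, Egr2 and Egr3 and recruit the NuRD chromatin remodelling complex, and Nab2 is itself induced by Egr factors, which closes a feedback loop. Outside neurons Egr2, also known as Krox20, drives myelination in Schwann cells of peripheral nerve and patterning of the hindbrain. Egr1 and Egr3 have been studied in memory, and the level of Egr1 in adult cortex depends on ongoing activity.

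RefSeq start site windows were matched for 4 of the 6 genes, Egr2, Egr4, Nab1 and Nab2, and not for Egr1 or Egr3. They are shown because Egr2 and Egr4 varied together across animals while their response to genotype differed, and because Nab1 and Nab2 moved apart. Each is the RefSeq window on build GRCm38.p6 from 250 bases before to 50 bases after a start site, 300 bases in all, printed in the direction of transcription. Capitals mark matches to 3 motifs searched on both strands. These were the CArG box that SRF binds, the letters TGACGT of the CREB site, read as ACGTCA on the other strand, and the Egr site GCGNGGGCG. The Egr2 window is chr10:67537619-67537918 on the plus strand, the Egr4 window chr6:85513540-85513839, the Nab1 window chr1:52500399-52500698 and the Nab2 window chr10:127666654-127666953, the last 3 on the minus strand.

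Egr2: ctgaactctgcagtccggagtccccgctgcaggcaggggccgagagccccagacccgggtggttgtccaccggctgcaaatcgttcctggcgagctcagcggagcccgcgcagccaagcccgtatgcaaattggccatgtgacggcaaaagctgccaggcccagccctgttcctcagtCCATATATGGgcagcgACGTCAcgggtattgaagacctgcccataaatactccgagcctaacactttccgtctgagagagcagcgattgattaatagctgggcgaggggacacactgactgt
Egr4: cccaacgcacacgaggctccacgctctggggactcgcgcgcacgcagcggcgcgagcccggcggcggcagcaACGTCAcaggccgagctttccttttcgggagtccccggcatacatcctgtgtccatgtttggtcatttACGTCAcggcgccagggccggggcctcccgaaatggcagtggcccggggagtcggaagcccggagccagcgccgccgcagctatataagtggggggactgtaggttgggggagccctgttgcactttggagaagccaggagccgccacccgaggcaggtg
Nab1: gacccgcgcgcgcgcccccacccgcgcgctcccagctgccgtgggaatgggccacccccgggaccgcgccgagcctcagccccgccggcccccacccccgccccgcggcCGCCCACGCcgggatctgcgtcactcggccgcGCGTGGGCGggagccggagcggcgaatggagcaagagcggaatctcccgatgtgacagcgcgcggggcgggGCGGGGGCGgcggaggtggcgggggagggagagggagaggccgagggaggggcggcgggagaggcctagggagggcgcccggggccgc
Nab2: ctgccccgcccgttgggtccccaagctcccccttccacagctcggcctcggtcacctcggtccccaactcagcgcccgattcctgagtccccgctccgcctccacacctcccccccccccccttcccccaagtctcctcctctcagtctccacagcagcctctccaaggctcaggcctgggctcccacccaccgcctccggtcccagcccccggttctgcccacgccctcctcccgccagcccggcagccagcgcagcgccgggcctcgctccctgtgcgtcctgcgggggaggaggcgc

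The Egr2 window held a CArG box from 72 to 63 bases before the start site and a CREB letter match from 56 to 51 bases before it. Among 32851 windows of the same length, 1.63% held a CArG box, 7.51% held TGACGT and 0.0913% held both. Egr4 had 2 CREB letter matches and no CArG box in its window. Nab1 had 3 Egr site matches, the motif that 5.55% of windows held, and Nab2 had no match to any of the 3 in its window. That Nab2 window lies inside the span annotated for the gene, whose upstream end is at chr10:127668568. The sequence at that end was not searched. RefSeq lists 5 such windows for Egr2. The printed window and 2 that overlap it held the same pair of matches, and of the other 2 windows 1 held a CArG box and 1 held no match. A match describes the letters only.

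On GRCm38 in GENCODE M21 the genes lay apart from each other. Egr1 spans chr18:34859823-34864984, Egr2 chr10:67535475-67542188 and Egr3 chr14:70077203-70082614, all on the plus strand. Egr4 spans chr6:85511121-85513589, Nab1 chr1:52457294-52500679 and Nab2 chr10:127660918-127668568, all on the minus strand. No other annotated gene overlapped 5 of the 6. Nab2 overlaps 3 genes of the opposite strand, which are Stat6 by 40 bases, the antisense gene Gm16229 by 1646 bases and Nemp1 by 1668 bases. The libraries were stranded. How the counting treated strand is not given in the sources used here. Whether the counting told reads of Nab2 and of its partners apart in the overlapping stretches is therefore not known. The rest of the 7651 bases of Nab2 overlaps no other gene. Stat6, a cytokine signalling factor, rose from 15.1 ± 2.14 to 19.8 ± 2.04 CPM, the counts of a gene scaled to a sequencing depth shared by all libraries (SD, n = 6; adjusted p = 0.00289). Nemp1 was at 5.55 ± 0.43 CPM in wild types and 5.90 ± 0.30 in Q140 mice (SD, n = 6; adjusted p = 0.51). Gm16229 had 7 reads in all wild types and 4 in all Q140 mice.

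Library totals ran from 19587208 to 35198602 reads. Huntingtin mRNA itself ran from 180 to 204 CPM in wild types and from 143 to 164 CPM in Q140 mice, with no overlap (log2 fold change -0.37, SE 0.0428, adjusted p = 0.000203). All 6 Egr and Nab genes passed the expression filter, which kept 17725 genes. Each had at least 100 reads in every animal, the fewest being those of Egr2 in Q140 animal 6, the shallowest library.

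Q140 mice had less Egr2, Egr3 and Nab2 mRNA than wild types, with Egr2 down by 56.3%, Egr3 by 24.6% and Nab2 by 21.5%. Egr1, Egr4 and Nab1 did not pass the test. Thus 3 of the 6 genes fell and none rose, where 6.69% of all genes tested fell and 4.5% rose. In the same comparison 59.8% of all calls were lower, or 33.6% with column totals as the only scaling, where the median log2 fold change of all genes was 0.05 in place of 0.004. These differences also followed the name prefix of the animals. In a fit of the 9 RFckQ and RFQ animals alone, with the prefix as a term in place of sex, none of the 6 genes passed, and 0.649% of all genes tested fell. The values with a prefix term given hereafter are from that fit.

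Egr2, an activity-induced factor best known for its part in myelination, had the largest fitted change of the 6. In wild types its lowest, median and highest levels were 12.5, 19.8 and 23.3 CPM. In Q140 mice they were 4.97, 8.13 and 14.7 CPM. All wild types but animal 4 lay above every Q140 mouse, and the groups overlapped through wild type 4 and Q140 animal 4. The means were 19.7 ± 3.93 and 8.57 ± 3.35 CPM (SD, n = 6), which is -1.19 on the log2 scale by the fit (SE 0.191, adjusted p = 0.00177). Wild type 4 is the RFQ animal of its genotype and Q140 animal 4 the RFckQ animal of its own. Within RFckQ the Q140 animal had 14.7 CPM, against 19.7 to 23.3 in the 4 wild types. Within RFQ the 3 Q140 mice had 4.97 to 9.24 CPM, against 12.5 in the wild type. Egr2 was thus lower in Q140 than in wild type inside both prefixes. With the prefix as a term its log2 fold change was -0.63 (SE 0.162), which did not pass (adjusted p = 0.0998). Over all 12 animals, with sex and prefix both as terms, it was -0.70 (SE 0.168, adjusted p = 0.0832). In that fit too the genotype difference rests on the RFckQ and RFQ animals. The FMQ wild type and the Q140 females without a prefix have no counterpart of the other genotype.

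Egr3, which is induced by activity and studied in muscle spindles and learning, fell by less. Its lowest, median and highest levels were 38.9, 55.4 and 61.5 CPM in wild types and 26.9, 42.8 and 50.1 CPM in Q140 mice. The groups overlapped, since the lowest wild type, again animal 4, lay among the Q140 males. The log2 fold change was -0.41 (SE 0.0881, adjusted p = 0.0100). Without sex as a covariate the value was -0.39 and no longer passed (adjusted p = 0.0976), and with the prefix as a term it was -0.24 (adjusted p = 0.342). Egr3 levels were set apart by sex within each genotype. Wild type females had 58.0 to 61.5 CPM and wild type males 38.9 to 52.8, and Q140 females had 46.6 to 50.1 CPM and Q140 males 26.9 to 39.0.

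Nab2, the inducible corepressor, had lowest, median and highest levels of 39.3, 56.2 and 60.4 CPM in wild types. In Q140 mice they were 39.8, 41.8 and 48.4 CPM. Wild type 4 had the lowest level of all 12 animals, and the other 5 wild types lay above every Q140 mouse. The 3 RFQ males of the Q140 group had a mean of 39.8 CPM with an SD of 0.0378 CPM. They had 801 to 1387 reads of Nab2, where counting error alone is larger than that SD. The log2 fold change was -0.35 (SE 0.0672, adjusted p = 0.00529). Within RFQ the wild type and the Q140 mice were at like levels, 39.3 against 39.8 to 39.9 CPM, and with the prefix as a term the value was -0.11 (SE 0.0677, adjusted p = 0.490).

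Egr1, the family member most used as an activity marker, did not pass the test between genotypes. Its lowest, median and highest levels were 262, 409 and 504 CPM in wild types and 285, 314 and 503 CPM in Q140 mice, so the groups covered the same range. The log2 fold change was -0.27 (SE 0.135, 95% interval -0.56 to 0.01, adjusted p = 0.211). Its levels split by prefix. The 5 RFckQ animals, Q140 animal 4 among them, had 387 to 504 CPM and the 4 RFQ animals 262 to 331. With the prefix as a term the fitted difference between genotypes turned to 0.17 (SE 0.0962, adjusted p = 0.429). Without wild type 4 and Q140 animal 4, the lowest wild type and the highest Q140 mouse, it was -0.50 (SE 0.0816, adjusted p = 0.00352). They were chosen after the values were seen. Leaving them out widens the difference by itself, so that pass is no test of it.

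Egr4, which shares the DNA-binding fingers but lacks the region that Nab proteins bind, had lowest, median and highest levels of 31.2, 40.1 and 48.8 CPM in wild types. In Q140 mice they were 31.1, 35.8 and 51.6 CPM. The ranges coincided. The log2 fold change was -0.04 (SE 0.118, 95% interval -0.29 to 0.22, adjusted p = 0.881), and its sign turned with column totals as the only scaling (0.01). Nab1, the other corepressor, is not known as an activity-induced gene. Its lowest, median and highest levels were 43.6, 49.4 and 54.9 CPM in wild types and 43.8, 50.8 and 55.2 CPM in Q140 mice, and the fitted log2 difference was 0.04 (SE 0.0659, 95% interval -0.10 to 0.18, adjusted p = 0.772).

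None of the 6 genes was without overlap between the genotypes, whereas 2.7% of all genes tested had every Q140 animal below every wild type. As the plot of levels by animal shows, wild type 4 was the lowest wild type for every member but Nab1, and Q140 animal 4 was the highest Q140 mouse for every member but Egr3.

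**Figure D1:**
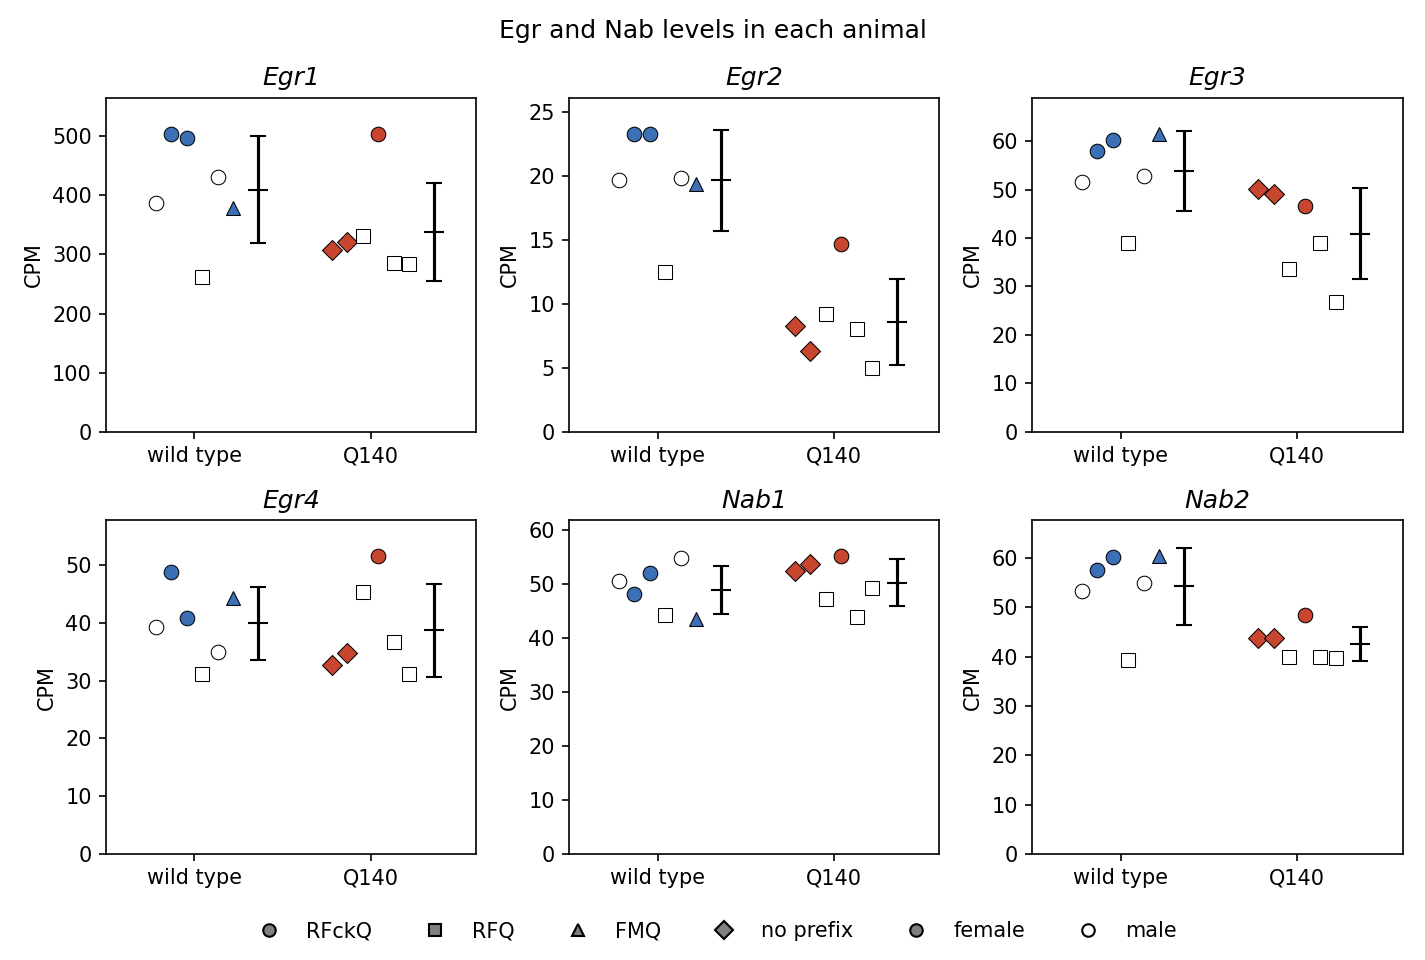
Levels of the 6 genes in CPM on axes that start at 0, 1 point per animal, with filled points for females, open points for males, shapes for the name prefix and bars for mean ± SD of each genotype. Egr2 shows the widest gap, 19.7 against 8.57 CPM in the mean, while the RFQ wild type (open square) sits at 12.5 and the RFckQ Q140 mouse (filled circle) at 14.7.

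The prefixes were compared directly over the 9 RFckQ and RFQ animals with genotype as a term, a comparison added after the values were seen. All 6 genes had a higher fitted level in RFckQ animals. Egr1 was 1.71-fold higher (log2 0.77, SE 0.0969) and passed (adjusted p = 0.0293), and it ranked 3 of the 17725 genes by p. In that comparison 5 genes passed in all, or 0.0282%. Egr2 was 0.87 higher on the log2 scale (SE 0.162) but did not pass (adjusted p = 0.132). Egr3 was higher by 0.50, Egr4 by 0.42, Nab2 by 0.40 and Nab1 by 0.23 on the same scale, with adjusted p-values from 0.0999 to 0.361. Since every RFQ animal was male, sex was then added as a term. Egr1 kept rank 3 at a log2 difference of 0.58 (SE 0.102), Egr2 stood at 0.69 and Egr3 at 0.38, and no gene of the 17725 passed (780 had an unadjusted p below 0.05; DESeq2 was not run on this comparison). What the prefixes stand for was not tested.

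**Figure D2:**
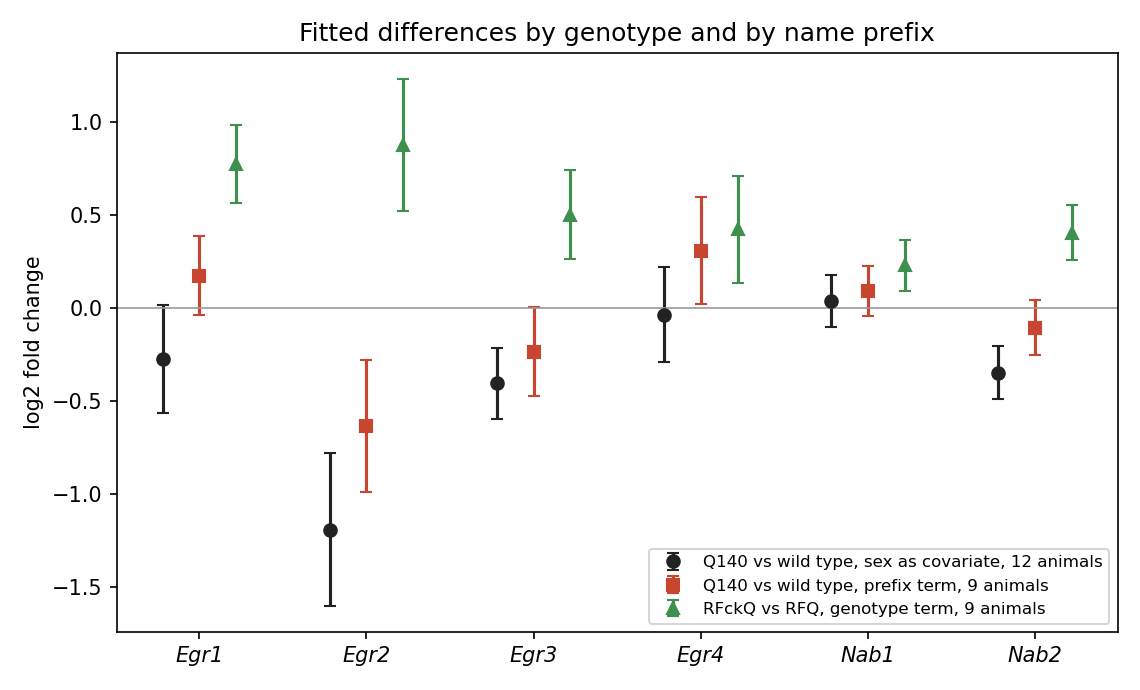
Fitted log2 fold changes with 95% intervals for Q140 against wild type with sex as a covariate (black), for the same contrast with a prefix term (red) and for RFckQ against RFQ (green). Egr2 is at -1.19 over 12 animals with sex as covariate and at -0.63 over 9 animals with a prefix term and no sex term, and Egr1 at -0.27 and 0.17, while all 6 prefix differences lie above 0.

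Ratios of 2 genes inside the same library cancel what scales both alike. In the 7 ratios tested, 4 differed between the genotypes, all 3 with Egr2 among them. Reads of Egr1 per read of Egr2 rose 1.97-fold in Q140 mice. On the log2 scale the ratio lay between 4.29 and 4.44 in the 6 wild types and between 5.10 and 5.84 in the 6 Q140 mice, with no overlap. The means were 4.38 ± 0.07 and 5.36 ± 0.31 (SD, n = 6). An exact two-sided permutation test over all 924 splits gave p = 0.00217, the smallest it can give, and 0.00758 adjusted over the 7 pairs. The wild type spread of this ratio was narrow although Egr1 alone ranged from 262 to 504 CPM in the same animals.

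The Egr1 to Egr2 ratio followed the genotype inside RFckQ and RFQ, the prefixes found in both genotypes. Among RFckQ animals the wild types had 4.30 to 4.44 and the Q140 mouse 5.10. Among RFQ animals the wild type had 4.39 and the Q140 mice 5.15 to 5.84. Both animals that carry the prefix common in the other genotype thus sat on their own genotype's side. Inside each of these prefixes 1 genotype had 1 animal only, and the permutation test took no account of prefix. The FMQ wild type had 4.29, and the Q140 females without a prefix had 5.22 and 5.67. Leaving out any 1 animal gave differences from 0.88 to 1.03.

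**Figure D3:**
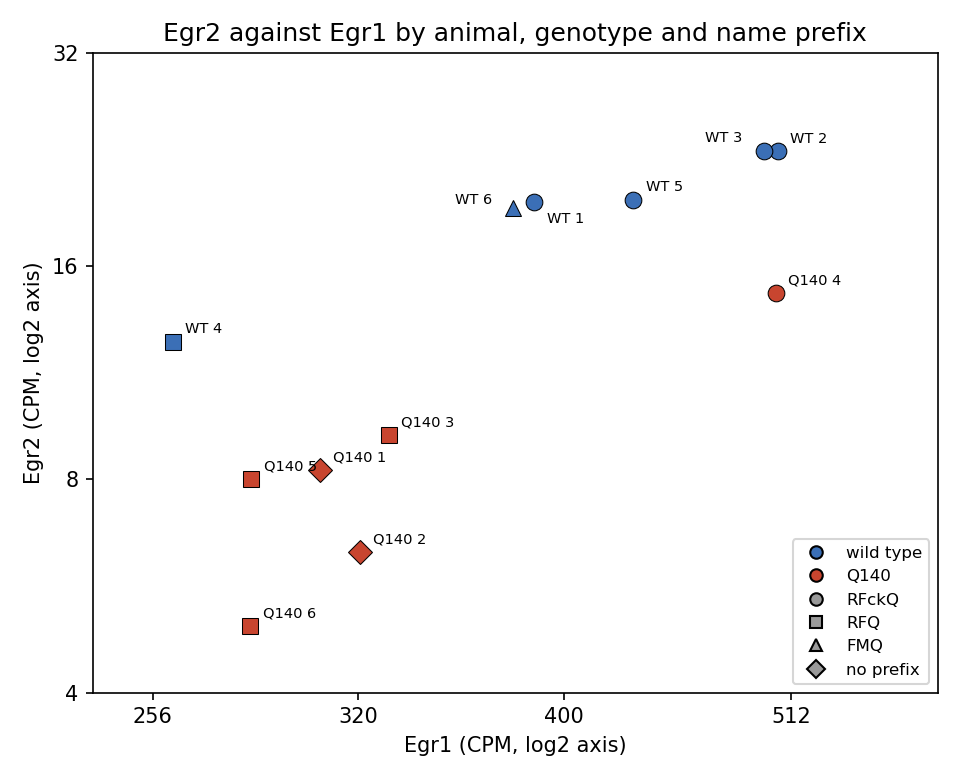
Egr2 against Egr1 in each animal, both in CPM on log2 axes, with blue for wild type, red for Q140 and shapes for the name prefix. Wild type 4 at 262 and Q140 animal 4 at 503 CPM of Egr1 lie at opposite ends of the horizontal axis, yet wild type 4 has more Egr2 than the RFQ Q140 mice (12.5 against 4.97 to 9.24 CPM) and Q140 animal 4 less than the RFckQ wild types (14.7 against 19.7 to 23.3 CPM).

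Egr2 fell relative to the other members of the family as well. The log2 ratio of Egr2 to Egr4 was -1.32 to -0.81 in wild types and -2.65 to -1.81 in Q140 mice, without overlap (difference -1.20, exact permutation p = 0.00217, adjusted 0.00758). Egr2 over Egr3 differed by -0.84 (exact permutation p = 0.00433, adjusted 0.00758), with the groups touching at -1.67. The ratios among the other Egr genes did not differ past the threshold. Egr1 over Egr3 differed by 0.14 (exact permutation p = 0.422), Egr1 over Egr4 by -0.22 (exact permutation p = 0.0974, adjusted 0.114) and Egr3 over Egr4 by -0.36 (exact permutation p = 0.0779, adjusted 0.109). The last passed without Q140 animal 1 (-0.47) or animal 2 (-0.45), the females without a prefix.

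Nab1 over Nab2 rose by 0.38 on the log2 scale (exact permutation p = 0.00433, adjusted 0.00758). It ran from -0.47 to 0.17 in wild types and from 0.14 to 0.31 in Q140 mice, and the overlap came from wild type 4. Inside RFQ, wild type 4 at 0.17 lay within the 0.14 to 0.31 of the Q140 mice, unlike the Egr1 to Egr2 ratio. Inside RFckQ the wild types had -0.26 to 0.00 and the Q140 mouse 0.19.

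**Figure D4:**
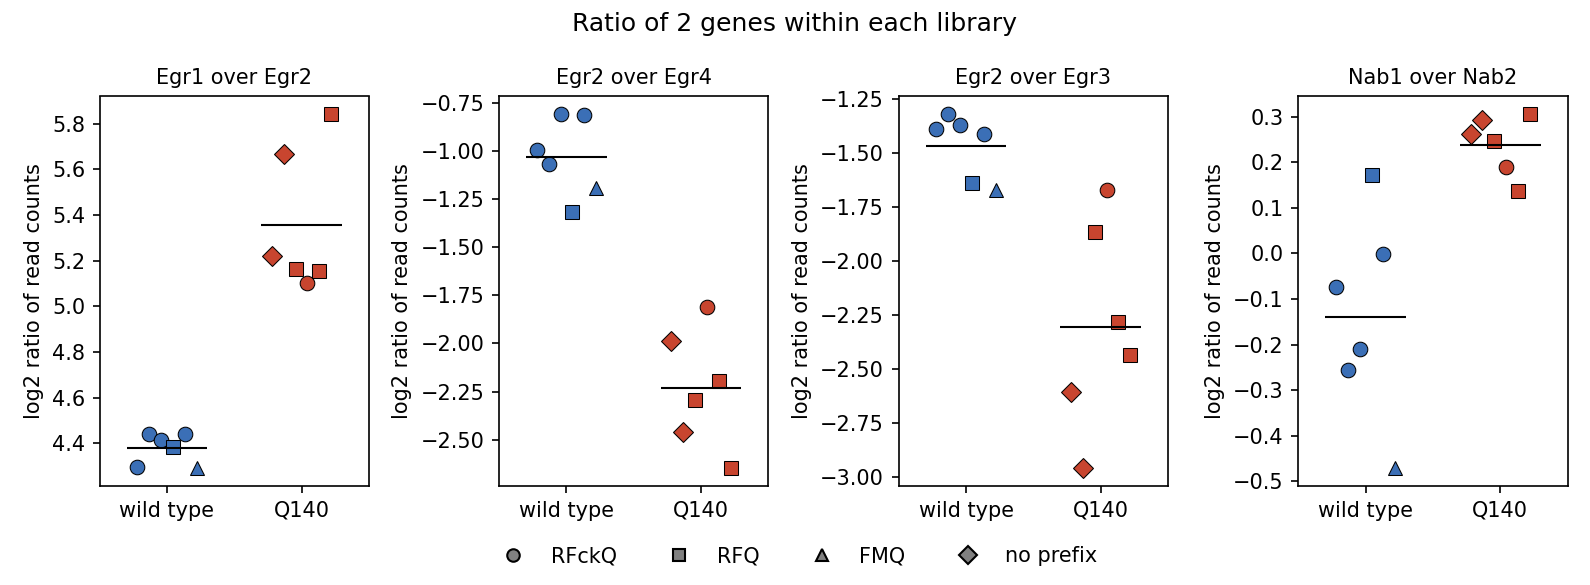
Log2 ratios of read counts inside each library for the 4 pairs that differed between genotypes, 1 point per animal, with a line at each group mean and shapes for the name prefix. Egr1 over Egr2 separates 4.29 to 4.44 from 5.10 to 5.84, with 1 RFckQ Q140 mouse and 1 RFQ wild type. In Nab1 over Nab2 the RFQ wild type at 0.17 lies among the Q140 mice.

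Levels between genes were compared per length. In the deposited FPKM, which are scaled by gene length and library total, wild types had Egr1 at 89.8 ± 19.4, Egr3 at 37.3 ± 5.48, Egr4 at 18.3 ± 2.79, Nab2 at 18.1 ± 2.50, Nab1 at 11.7 ± 1.11 and Egr2 at 5.68 ± 1.11 (SD, n = 6). Egr4 and Nab2 could not be ordered, with Egr4 the higher in 4 of 6 wild types. The order in Q140 mice was the same, with Egr2 at 2.56 ± 0.985 FPKM (SD, n = 6). The place of Egr3 depends on its length. The FPKM values imply 1416 bases for Egr3, whereas its exons in GENCODE M21 cover 4406, and for the other 5 genes the implied and annotated lengths were equal. With 4406 bases Egr3 would stand at 12.0 ± 1.76 FPKM in wild types and 9.41 ± 2.02 in Q140 mice (SD, n = 6), below Egr4 and Nab2 in both groups.

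Egr2 made up a small and, in Q140 mice, smaller share of the family. Of the FPKM summed over the 4 Egr genes, Egr2 held 3.54% to 3.95% in wild types and 1.49% to 2.49% in Q140 mice. By the annotated length of Egr3 the shares were 4.31% to 4.75% and 1.71% to 2.86%, again without overlap. Egr1 held 54.8% to 61.8% and 56.3% to 64.7% of the FPKM sum. The sum itself ran from 103 to 180 in wild types and from 101 to 174 in Q140 mice, so the totals overlapped throughout. These shares restate the ratios above and are no separate evidence.

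Within females Egr2 and Nab2 fell, where 4.21% of all genes fell. The log2 fold change of Egr2 was -1.17 (SE 0.274; adjusted p = 0.0239) and that of Nab2 -0.39 (SE 0.0957; adjusted p = 0.0289). Leaving out any of 4 animals ended the Egr2 call, those being Q140 1 (adjusted p = 0.0898) and 2 (0.109) and wild types 2 (0.0511) and 3 (0.0782), and Nab2 likewise without Q140 1 or 2 or wild types 3 or 6 (0.0742 to 0.123). Within males none of the 6 passed (0.959% of all genes fell). Their fitted log2 differences included -1.21 for Egr2 (SE 0.287; adjusted p = 0.0598) and -0.52 for Egr3 (SE 0.123; adjusted p = 0.0611), and these 2 passed with DESeq2 (adjusted p = 0.0181 and 0.00337). The Egr2 effect was of like size in both sexes, with a difference of -0.04 between them (95% interval -0.89 to 0.81, adjusted p = 0.98).

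No member's response to genotype differed by sex past the threshold. That interaction passed for 0 of the 17725 genes by edgeR, or 0%, although 1633 had an unadjusted p below 0.05. Nab1 had the smallest p of the members, with 0.17 in females and -0.10 in males on the log2 scale, a difference of -0.26 (SE 0.114, unadjusted p = 0.0377, adjusted p = 0.516). Males had less Egr3 than females, with a log2 difference of -0.43 (SE 0.0882; adjusted p = 0.0418), in a comparison where 0.654% of all genes passed. The call was lost without any of 8 of the 12 animals, with adjusted p-values up to 0.108 there, and with column totals as the only scaling (0.0604). Every RFQ animal is male, and of the males 2 carried another prefix, so sex and prefix overlap in this comparison. No other member passed between the sexes.

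After genotype and sex were taken out, the genes whose log2 CPM went most with each member over the 12 animals were found among 15486 genes. The points share library depth and dissection, and the name prefix was not taken out, so the correlations are descriptions. For Egr1 they were Per1, a clock gene induced by activity (Pearson r = 0.926), Nr4a1 (0.925) and Fos (0.92), both rapidly induced transcription factors. Egr2 was closest to Ezh1, a histone methyltransferase (0.906), Hinfp (0.881) and Mxd3 (0.869). Egr3 was closest to Cbln4, a secreted synapse organizer (0.945), Pwwp2a (0.932) and Fastkd2 (0.925), and Egr4 to Btbd6 (0.94), Lor (0.914) and Gm9768 (0.909). Nab1 was closest to Snx25 (0.953), Ciapin1 (0.941) and Tmod1 (0.934), and Nab2 to Zfp592 (0.931), Ctdp1 (0.919) and Spata2l (0.908).

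Among the members themselves, Egr1 with Egr2 had r = 0.83 and Egr2 with Egr4 r = 0.811. Egr4 was among the 11 genes closest to Egr2. Egr1 with Nab2 had r = 0.743 and Egr1 with Egr4 r = 0.714. Egr3 had r = 0.471 to Nab2, 0.464 to Egr2, 0.251 to Egr1 and 0.125 to Egr4. Nab2 with Egr4 had 0.479, and Nab1 with Egr4 had -0.0881. The median over all genes was -0.02 for Egr1. The 95th percentile over all genes was 0.609 for Egr1, 0.481 for Egr2, 0.566 for Egr3 and 0.541 for Egr4.

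Upstream of the Egr genes, the SRF list had 6 tested genes, of which 1 fell and none rose, beside the 6.69% of all genes tested that fell. That was Mkl2, a cofactor of SRF, at 372 ± 9.82 CPM in wild types and 319 ± 27.7 in Q140 mice (SD, n = 6; log2 fold change -0.22, adjusted p = 0.0093). Of 8 CREB family members and coactivators 1 fell, the coactivator Crtc1 (log2 fold change -0.14, adjusted p = 0.0394). Of 21 genes of the Ras to ERK cascade 5 fell and none rose. Rasgrf2, a calcium-responsive Ras activator, went from 291 ± 11.6 to 203 ± 20.4 CPM (SD, n = 6; log2 fold change -0.52, adjusted p = 0.000218). The genes Rps6ka3 and Rps6ka2, for kinases that the cascade activates, fell by 0.20 and 0.21 on the log2 scale. The median log2 fold changes of the 3 lists were -0.06, 0.04 and -0.05, beside 0.004 over all genes tested. With a prefix term 1 of the Ras to ERK genes fell and none of the SRF or CREB genes, beside 0.649% of all genes.

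Downstream, 27 genes reported elsewhere as regulated by an Egr factor were tested, and 6 fell while none rose, beside 6.69% of all genes that fell, with a median of -0.08. Cdk5r1, the activator of the kinase Cdk5, fell from 395 ± 19.4 to 334 ± 23.1 CPM (SD, n = 6; log2 fold change -0.24, adjusted p = 0.00237). Ngfr, the low-affinity neurotrophin receptor, was scarce and went from 2.74 ± 0.612 to 1.66 ± 0.358 CPM (SD, n = 6; log2 fold change -0.71, adjusted p = 0.0187). Slc12a5, the neuronal potassium chloride transporter, and Dlg4, the postsynaptic scaffold PSD-95, fell by 0.16 and 0.18 on the log2 scale. With a prefix term none of the 27 fell. Whether any of these follows an Egr factor in this tissue was not tested.

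Of 39 other rapidly induced genes tested, 11 fell and none rose, beside 6.69% of all genes that fell. Their median log2 fold change was -0.30. Plk2, a kinase of synaptic scaling, fell from 234 ± 14.2 to 180.0 ± 10.5 CPM (SD, n = 6; log2 fold change -0.38, adjusted p = 0.000251). Dusp1 and Dusp6, phosphatases that switch off MAP kinases, fell by 0.49 and 0.38 on the log2 scale, and Per1 by 0.48. Fos, at a log2 fold change of -0.27 (adjusted p = 0.238), and Nr4a1, at -0.41 (adjusted p = 0.0637), did not pass, as Egr1 did not. With a prefix term 1 of the 39 fell, beside 0.649% of all genes. Arc and Bdnf stand in both this list and the one before.

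On the corepressor side, 2 of 14 NuRD subunits rose and none fell, beside 4.5% of all genes that rose, with a median of 0.02. Hdac1, a histone deacetylase, went from 11.1 ± 0.637 to 13.5 ± 0.902 CPM (SD, n = 6; log2 fold change 0.27, adjusted p = 0.00445). Chd3, a remodelling ATPase, went from 796 ± 16.4 to 912 ± 50.1 CPM (SD, n = 6; log2 fold change 0.20, adjusted p = 0.00957). With a prefix term neither passed. Of 4 other zinc finger factors that bind GC-rich sites, Wt1 rose and Sp1, Sp3 and Sp4 did not pass. Wt1 had 0 to 3 reads in each wild type, 6 in all, and 20 to 83 reads in each Q140 mouse, 339 in all (adjusted p = 4.66e-06), and it also passed with a prefix term (adjusted p = 0.00117). Wt1 encodes a developmental regulator whose DNA-binding fingers resemble those of Egr1.

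The markers of cell types were read beside these results, since in bulk tissue fewer cells of a type and less RNA per cell cannot be told apart. Excitatory neuron markers fell with Egr2, Egr3 and Nab2. Of 10 tested, 5 fell and none rose, beside 6.69% of all genes tested that fell. Their summed level was 7264 to 9246 CPM in wild types and 5852 to 6469 CPM in Q140 mice. The sum was 7995 in wild type 4 and 6469 in Q140 animal 4, so both were on their own genotype's side. Lingo1 fell by 0.54, Arpp21 by 0.50, Slc30a3 by 0.57 and Camk2a by 0.42 on the log2 scale. Of 10 inhibitory neuron markers 4 fell, Lamp5, Sst, Adarb2 and Lhx6, beside the same 6.69%. The other 6 did not pass. Their log2 fold changes were -0.03 for Gad1, 0.02 for Gad2, 0.24 for Slc32a1, 0.15 for Pvalb, -0.29 for Vip and -0.39 for Npy. The sums of the 10 overlapped, at 727 to 915 CPM in wild types and 625 to 789 CPM in Q140 mice. Of these markers 2 of the 10 excitatory and 1 of the 10 inhibitory fell with a prefix term, beside 0.649% of all genes. The part of neuronal content in the Egr and Nab results was not tested.

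Of 8 markers of Schwann cells, where Egr2 drives myelin genes, 4 passed the filter. Drp2, at 118 ± 6.99 CPM in wild types and 106 ± 9.34 in Q140 mice (SD, n = 6), made up most of their sum. Pmp2 was at 0 in 7 of 12 animals. Gjb1, which oligodendrocytes also express, was the 1 that rose (log2 fold change 0.85, adjusted p = 0.00281). Of 5 oligodendrocyte markers 2 rose, Mog by 0.61 and Mag by 0.49, with sums of 3234 to 4591 and 3624 to 5210 CPM. Of 9 microglial markers 2 rose, Sall1 and Tmem119, with sums of 366 to 451 and 402 to 482 CPM. These counts stand beside 4.5% of all genes tested that rose. No Schwann cell, oligodendrocyte or microglial marker passed with a prefix term, beside 0.897% of all genes that passed in either direction.

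No marker passed in the lists for astrocytes (5 genes), border macrophages (5), endothelium and pericytes (9), meningeal fibroblasts (6), striatal projection neurons (9), red blood cells (5) or lymphocytes (2 tested of 6). Wild type 4, the wild type with the lowest Egr levels, had the highest sums among the wild types for meningeal (138 CPM, others 13.2 to 78.7), astrocyte (1765 CPM, others 1318 to 1519) and endothelial markers (494 CPM, others 349.8 to 442). Its part in these Egr levels was not tested. Q140 animal 3, another RFQ male, had a like meningeal sum of 139 CPM. Striatal sums ran from 321 to 1589 CPM in wild types and from 562 to 1037 CPM in Q140 mice. Without wild types 3 and 6, the lowest in meningeal and in striatal markers, 863 genes passed in place of 1982, and Egr2, Egr3 and Nab2 still passed (adjusted p = 0.00853, 0.0391 and 0.0401).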

How the data were processed

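RNA-seq of piriform cortex from 12 mice was analysed from both tables of the series. The count table holds whole reads per gene, as deposited by the authors, made with STAR 2.7.5c, HTSeq 0.12.3 and SAMtools 1.10 on GRCm38 (mm10), as far as the submitters' processing notes name tools and builds. The deposited FPKM values equal these counts divided by a length per gene and the column total, as checked on the values. No column belonged to another series (0 such columns). Neither the annotation release nor the strand setting is given in the sources used here.

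Counts were fitted with edgeR 4.0.16 in R 4.3.3 (TMM, default filter by genotype, quasi-likelihood test, sex as covariate, Benjamini-Hochberg adjustment over 17725 genes, threshold 0.05). A 4-group model gave the contrasts by sex. CPM use TMM-scaled totals. Ratios used log2 counts with exact permutation tests over animals, with p-values adjusted over 7 pairs. Each library is a separate animal, and the p-values rest on variation from animal to animal. The tests across genes were tested on simulated data. DESeq2 1.42.0, limma 3.58.1, other scalings and filters, and leaving out each animal were alternatives. Coordinates came from GENCODE M21, which matched 48349 of 48795 identifiers, and start site windows from RefSeq. Figures used matplotlib 3.10.9.

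The members and gene lists were chosen with earlier results of these data known. All members were named. From each list the text names up to 4 genes of smallest p that passed, or else the 1 of smallest p, and for each member the 3 genes of highest correlation; a few items are not reported here. Where a list had no gene that passed, its gene of smallest p was, for striatal markers Pde10a (adjusted p = 0.357), for astrocytes Gfap (0.16), for border macrophages Cd163 (0.088), for lymphocytes Cd4 (0.379), for endothelium Cldn5 (0.149), for meninges Pcolce (0.274) and for red blood cells Hbb-bs (0.388).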

Additional observations from a re-analysis of the deposited data

Results flagged for a closer look

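In 3 of 26 groups of 6 animals tested (each member and each ratio in each genotype), 1 animal lay far from the rest. For a single group chance gives about 1 in 20. The 26 groups share animals and genes, so they are not independent and their count cannot be set against that rate. Q140 animal 4 had 503 CPM of Egr1, and the next Q140 mouse had 331. Wild type 4 had 12.5 CPM of Egr2 against 19.3 in the next wild type, and 39.3 CPM of Nab2 against 53.3. Each gap was more than the critical share, 0.625, of the whole range of its group, at 0.789, 0.633 and 0.66. Q140 animal 4 is the RFckQ animal of its genotype and wild type 4 the RFQ animal of its own, and no ratio of 2 members had such an animal.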

How the results depend on the processing

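Egr2 and Nab2 passed in 25 and Egr3 in 24 of 28 alternatives, leaving out any 1 animal included. The exceptions were the fits with name prefix or number and, for Egr3, the fit without sex (-0.39). With sex and prefix as covariates the log2 fold changes were -0.70 for Egr2, -0.28 for Egr3, -0.13 for Nab2, 0.11 for Egr1 and 0.24 for Egr4, and 134 genes passed. Column totals alone put Egr4 at 0.011. The next settings were chosen after seeing the data. With a prefix term over RFckQ and RFQ animals they were -0.63, -0.24, -0.11, 0.17 and 0.31 with 159 genes, and over the animals with the name numbers 150 and 161, which both genotypes carry, with the number as replicate block -0.59, -0.21, -0.12, 0.15 and 0.37 with 1 gene. Without wild types 3 and 6, 863 genes passed and Nab1 was at -0.012. Without wild type 4 and Q140 animal 4, Egr1 was at -0.50 and Nab1 at -0.0123. The cause of these changes was not tested.

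Leaving out 1 animal at a time gave 1144 to 2503 genes (1193 without wild type 1, 1239 without wild type 3, 1144 without Q140 2, 1320 without Q140 3), -0.124 to 0.0354 for Egr4, -0.00733 to 0.0833 for Nab1, and -0.0465 to 0.219 for Egr4 in males. For the difference between the sexes it gave -0.16 to 0.29 for Egr1, -0.28 to 0.38 for Egr2 and -0.0526 to 0.170 for Nab2. For Egr3 over Egr4 it gave -0.47 to -0.26. The ratios Egr1 over Egr2, Egr2 over Egr3, Egr2 over Egr4 and Nab1 over Nab2 passed in all 15 alternatives run. The permutation test of the ratios took no account of prefix. Those passes therefore cannot show whether the ratios differ by genotype apart from prefix. The other name numbers occur in 1 genotype only, and the labels do not say what a number stands for. With fewer than 300 reads of Egr2 in most Q140 animals, its counting error is the largest of the 6.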
